A study of Homo sapiens with 9 samples.

Results

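The 39 protein-coding HOX genes of the 4 HOX clusters were followed in ES-2 cells, an established human cell line derived from an ovarian carcinoma. Members were the protein-coding rows whose symbol is HOX, a cluster letter from A to D and a number, which gave 39 of 19799 protein-coding genes and of 58174 genes in all. There were 11 members in HOXA, 10 in HOXB, 9 in HOXC and 9 in HOXD. The cells were transfected with a control siRNA (siC), with an siRNA pool directed against the mRNA of IGF2BP1, an RNA-binding protein that protects bound mRNAs from decay (siIGF2BP1), or with a pool against SRF, a transcription factor that binds CArG boxes (siSRF). Total RNA depleted of ribosomal RNA was sequenced 72 h after transfection, in 3 libraries per condition. Every group thus consisted of transiently transfected cells of a single line, each target was depleted with 1 siRNA pool, and the labels do not say whether the 3 libraries of a group came from separate cultures, so that p-values measure the spread between these libraries, which may be technical.

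HOX genes encode homeodomain transcription factors that give cells their position along the body axis. Within a cluster, the genes lie in the order in which they are used from head to tail, and genes at equal positions in different clusters (paralog groups, numbered 1 to 13) are the most alike in sequence. In the female reproductive tract HOXA9, HOXA10, HOXA11 and HOXA13 are known to pattern the oviduct, the uterus, the cervix and the upper vagina, in this order. HOX proteins bind DNA together with TALE homeodomain cofactors such as PBX and MEIS proteins. Polycomb complexes keep HOX clusters silent and MLL complexes keep them active.

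Between 6421764 and 9416175 reads were counted on genes per library. The deposited values are FPKM, that is reads scaled to gene length and library size. Comparing levels between genes rests on the gene lengths used. For some members these differ from the exon bases of the GENCODE v44 annotation, such as HOXB4 (3757 against 2002 bases) and HOXD12 (1346 against 2577). Both targets were reduced. IGF2BP1 mRNA was at 12.8, 13.5 and 12.1 FPKM in siC and at 4.18, 4.14 and 4.02 in siIGF2BP1 (log2 difference of −1.61 ± 0.067 SE, adjusted p = 0.000141 by limma). SRF mRNA had a mean of 14.5 ± 1.28 FPKM (SD, n = 3) in control libraries, of 6.01 ± 0.714 in siIGF2BP1 and of 1.47 ± 0.145 in siSRF. It was thus lower upon both knockdowns (log2 differences of −1.26 and −3.22, adjusted p = 0.00111 and 6.07e-05 by limma), while IGF2BP1 mRNA stood at 14.2 ± 0.455 FPKM upon SRF depletion. Of the mesenchymal markers VIM was at 1056 FPKM, CDH2 at 25.4 and FN1 at 8.25 in siC. Of the ovarian and epithelial markers, KRT7 (101 FPKM), KRT18 (43.4 FPKM) and KRT8 (8.81 FPKM) were present, whereas PAX8 and WT1 stayed under 0.3 FPKM on average in every group, MUC16 was listed at 0, and EPCAM and CDH1 were at 0 in siC. Of the markers of other cell types, PTPRC, CD3E and ALB were at 0 in all libraries and PECAM1 stood at 0.313 FPKM in siC. Several markers changed upon knockdown by limma. FN1 fell in siIGF2BP1 and in siSRF (log2 differences of −0.80 and −1.36), and KRT7 rose in both (0.59 and 0.33). CDH2 and KRT8 rose in siIGF2BP1 (0.66 and 0.55), KRT18 rose in siSRF (0.91) and VIM fell in siSRF (−0.31). Their part in the HOX differences was not tested.

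HOXB genes made up most of the HOX mRNA in ES-2 cells. In siC the summed level of the HOXB members was 56.6 ± 0.504 FPKM (SD, n = 3), which is 59.5% of the sum over all members. HOXD followed with 14.8 ± 0.714 FPKM, HOXC with 13.1 ± 0.527 and HOXA with 10.6 ± 1.33. HOXD and HOXC did not overlap between libraries, and HOXC and HOXA did not either. A mean of at least 1 FPKM in siC was reached by 8 HOXB, 5 HOXA, 4 HOXC and 4 HOXD genes, together 21 of 39 members (53.8%), against 52.2% of all protein-coding genes.

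HOXB7 was the most abundant member in siC, at 21.9, 18.4 and 17.6 FPKM. Its level was matched or exceeded by 2128 of the 19799 protein-coding genes. HOXB9 followed at 13.6, 15.4 and 14.2 FPKM, below the 3 values of HOXB7. HOXB7 and HOXB9 were the 2 members above 10 FPKM. HOXD9, the most abundant HOXD gene, came next at 7.05, 7.40 and 6.88 FPKM, and HOXB6 reached 6.25 ± 0.228 FPKM, again without overlap between neighbours in this order. HOXB2 (4.69 ± 0.754), HOXB4 (4.43 ± 0.312) and HOXD8 (3.98 ± 0.539) overlapped with each other. The place of HOXB4 in this order depends on the length used for it.

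In the HOXC cluster HOXC9 stood at 3.97, 2.63 and 2.96 FPKM, HOXC8 at 3.02 ± 0.324 and HOXC6 at 2.97 ± 0.213, with overlapping libraries. HOXA5 was the highest HOXA gene, at 1.95, 2.07 and 2.92 FPKM. It overlapped with HOXA6 at 2.004 ± 0.645 FPKM. The members of the reproductive tract series were low. HOXA10 stood at 1.70 ± 0.306 FPKM, HOXA11 at 0.439 ± 0.253, HOXA13 at 0.182 ± 0.0479 and HOXA9 at 0.0329 ± 0.0285.

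HOXB5 (3.25 ± 0.214 FPKM in siC), HOXB3 (2.26 ± 0.284) and HOXB8 (2.06 ± 0.377) completed the expressed part of HOXB. HOXA4 (1.46 ± 0.281) and HOXD4 (1.32 ± 0.593) were just above 1 FPKM, and HOXC10 (0.880 ± 0.226) and HOXA7 (0.753 ± 0.361) just below. HOXC4, HOXC11, HOXD3, HOXD1, HOXA3, HOXA2 and HOXC5 ranged from 0.618 down to 0.267 FPKM. For these genes the SD over the 3 libraries reached up to 0.262 FPKM (HOXA2), nearly the mean itself.

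**Figure D1:**
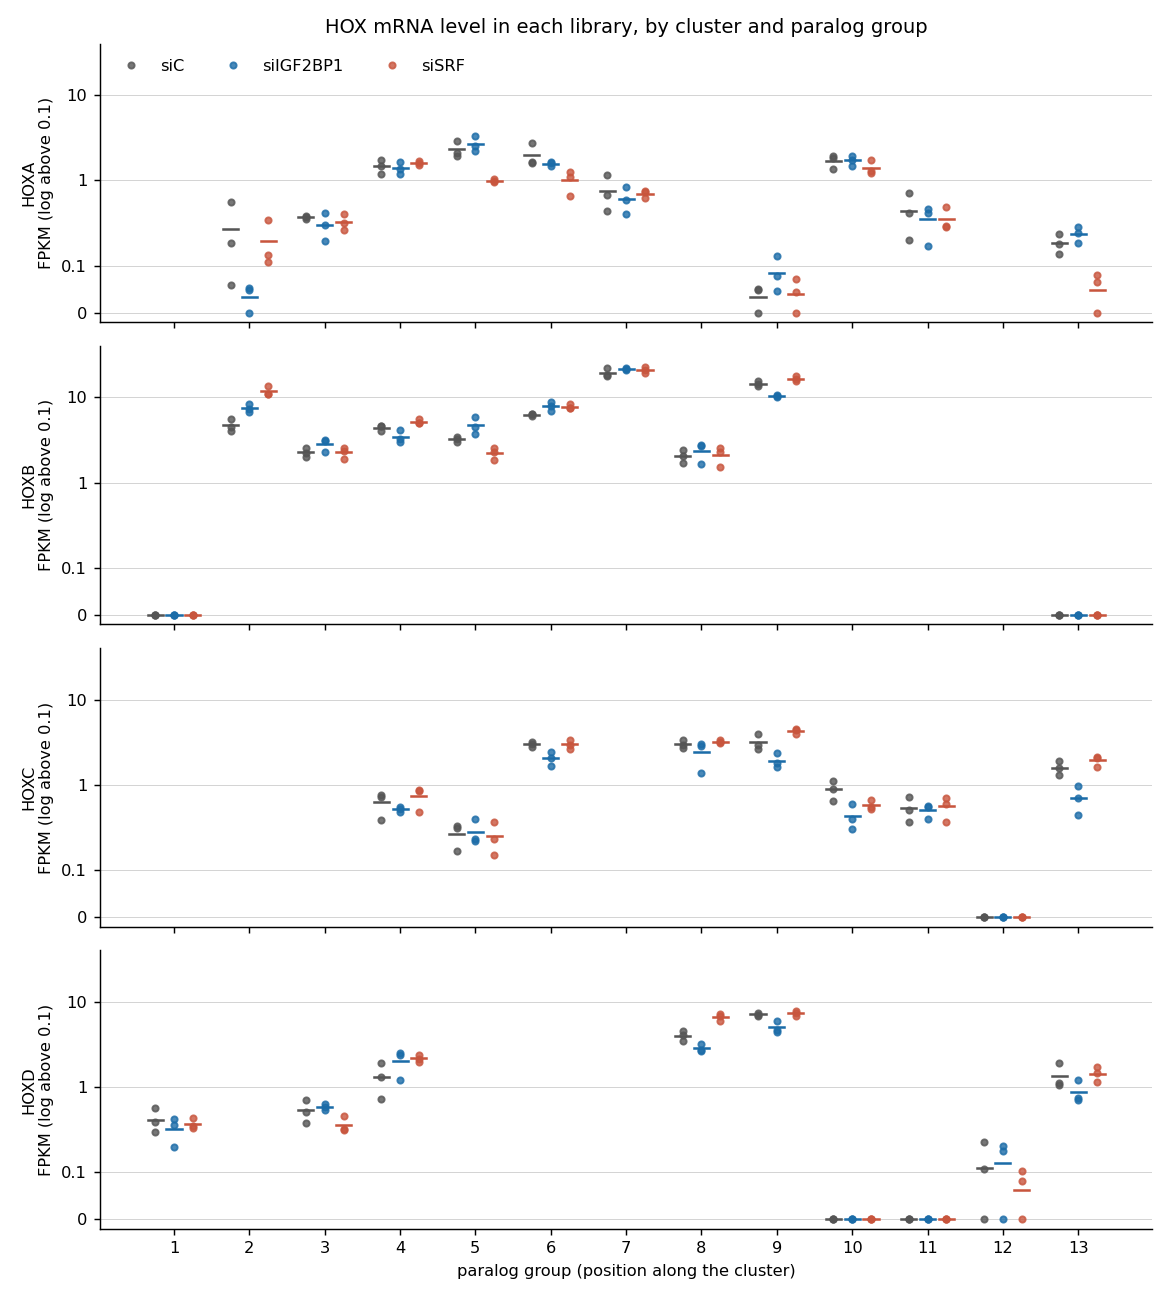
FPKM of the HOX genes in every library (vertical axis, logarithmic above 0.1 FPKM and linear below) by paralog group from 1 to 13 (horizontal axis), with 1 panel per cluster, points for libraries coloured by condition and short lines for means. HOXB2 to HOXB9 form an unbroken block above 1 FPKM, and HOXB1, HOXB13, HOXC12, HOXD10 and HOXD11 lie at 0 in all 9 libraries.

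In HOXB the expressed genes formed an unbroken block along the cluster, whereas the other clusters had gaps. All 8 genes from HOXB2 to HOXB9 lay between 2.06 FPKM (HOXB8) and 19.3 FPKM (HOXB7) in siC, while both ends of the cluster, HOXB1 and HOXB13, had no read in any library. HOXC12, HOXD10 and HOXD11 had no read either. Such a count of 0 allows up to 3 reads per library, which is at most 0.215 FPKM for these 5 genes and covers counting error only. In HOXD the silent HOXD10 and HOXD11 lay between HOXD9 at 7.11 FPKM and HOXD13 at 1.35 ± 0.470 FPKM, with HOXD12 at 0.111 ± 0.113. In HOXC, HOXC13 was detected at 1.59 ± 0.286 FPKM beside the silent HOXC12. Paralogs of equal position differed widely. In paralog group 9, HOXB9 stood at 14.4 FPKM, HOXD9 at 7.11, HOXC9 at 3.19 and HOXA9 at 0.0329. In paralog group 13, HOXC13 and HOXD13 exceeded 1 FPKM while HOXB13 was silent.

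Some neighbours share exon bases, so the counting may not fully separate them. The reads were counted on another annotation release than the one used below, so the shares in the counting may differ. In the GENCODE v44 annotation of GRCh38, 62.5% of the exon bases of HOXA7 lie opposite an exon of HOXA-AS3, 60.1% of those of HOXD1 are shared with other genes, among them HAGLR on the opposite strand, and 67.3% of those of HOXC5 lie in other annotated genes of its own strand. HOXB6 shares 16.6% with HOXB3 on the same strand. Among the members described most closely below, HOXA5 and HOXB9 share no exon base, HOXB2 shares 3.54%, HOXB5 3.93%, HOXC9 9.78% and HOXD8 24.4%, the last with HOXD-AS2 on the opposite strand. The library kit marks strand, but whether the reads were counted by strand is not given in the sources used here.

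The HOX clusters also carry miRNA genes, and IGF2BP1 is known to shield mRNAs from miRNA-directed decay. The following RefSeq miRNAs (GRCh38.p14) are shown because their seeds (bases 2 to 8, in capitals) are complementary to sites in the 3′UTRs of several members. The 2 miR-196 sequences, which come from genes inside HOXA, HOXB and HOXC, share a seed. That of miR-10a lies between HOXB4 and HOXB5. The let-7 seed, from outside the clusters, overlaps with that of miR-196 in 6 bases.
hsa-miR-196a-5p: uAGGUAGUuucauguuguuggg
hsa-miR-196b-5p: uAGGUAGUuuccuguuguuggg
hsa-miR-10a-5p: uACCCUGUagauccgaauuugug
hsa-let-7a-5p: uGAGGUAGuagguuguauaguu

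The match to the miR-196 seed, ACTACCT on the mRNA strand, occurred in the canonical GENCODE 3′UTR of 8 of 39 members (20.5%), or of 5 of the 33 members tested (15.2%), against 8% of the 12394 tested protein-coding genes with a 3′UTR. The let-7 match CTACCTC, which can overlap the former, occurred in 5 members, 3 of them tested (9.09% of those tested, against 10.8% of genes), and the miR-10 match ACAGGGT in 3 tested members (9.09%, against 14.4%). The median 3′UTR of the tested members was 869 bases long and that of the tested genes 1319 bases. HOXA7 held 4 miR-196 matches and HOXC8 held 3. The sites below, with the match in capitals, are those of the most abundant member of HOXA and HOXB, the first of HOXC8, and the let-7 match of HOXB4.
HOXA5: tttttattcaaACTACCTatattccttgt
HOXB7: actgaaaaaatACTACCTataggaaagtc
HOXC8: tcacaactctaACTACCTgtcagatactt
HOXB4: caggccccttcCTACCTCtggggctgctt
None of these 3 seeds had a match in the 3′UTR of HOXB2, HOXB5, HOXB9, HOXC9 or HOXD8. A match is a stretch of letters and was not tested as a binding site.

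Upon IGF2BP1 depletion HOXB9 was the 1 member that passed the threshold. In each comparison a gene was counted as changed, or called, at an adjusted p of at most 0.01 in a limma fit on log2(FPKM + 0.1) over all genes that reached 0.1 FPKM on average. HOXB9 was at 13.6, 15.4 and 14.2 FPKM in siC and at 10.8, 10.1 and 10.3 in siIGF2BP1. All 3 depleted libraries were below all controls, by a log2 difference of −0.46 ± 0.066 SE (0.727-fold, adjusted p = 0.00646 by limma). In all, 1 of the 33 members tested (3.03%) was called, against 11.4% of the 12512 protein-coding genes tested. Above a mean of 1 FPKM it was 1 of 21 members, against 13.6%. When any 1 of the 6 libraries was left out, the difference of HOXB9 lay between −0.50 and −0.41 and its adjusted p by limma between 0.0147 and 0.0327, above the threshold. It was called under 9 of the 10 alternative settings and lost with a replicate block (adjusted p = 0.045 by limma). The 10 include the looser threshold of 0.05, which any call at 0.01 passes by definition. With limma-voom on the recovered reads 3 members were called, HOXB9, HOXB2 (adjusted p = 0.000795) and HOXC13 (adjusted p = 0.00459), against 28.1% of protein-coding genes.

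Most estimates of the other HOXB members pointed the other way. HOXB2, the most anterior HOXB gene expressed, was at 4.02, 4.54 and 5.50 FPKM in siC and at 7.31, 6.75 and 8.44 in siIGF2BP1. The groups did not overlap, and the log2 difference was 0.67 ± 0.141 SE with an adjusted p of 0.0236 by limma. HOXB5 had 4.54, 5.84 and 3.70 FPKM in siIGF2BP1 against 3.27, 3.03 and 3.46 in siC (log2 difference of 0.50 ± 0.173 SE, adjusted p = 0.113 by limma). HOXB6 also had non-overlapping groups, at 6.25 FPKM in siC and 7.90 in siIGF2BP1 (adjusted p = 0.0772 by limma). HOXB7 stood at 22.3, 21.4 and 21.2 FPKM after depletion, within the range of the controls for 2 of the 3 libraries, with a log2 difference of 0.17 and a 95% interval from −0.04 to 0.38. Of the 8 HOXB members tested, 6 had positive and 2 negative estimates, with a median log2 difference of 0.24.

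HOXD9 and HOXC9, paralogs of HOXB9, had lower means in siIGF2BP1, while HOXA9 was too low to be tested. HOXD9 was at 7.05, 7.40 and 6.88 FPKM in siC and at 5.93, 4.69 and 4.42 in siIGF2BP1 (log2 difference of −0.51 ± 0.120 SE, adjusted p = 0.0370 by limma). HOXC9 was at 1.91 ± 0.371 FPKM against 3.19 ± 0.697 (log2 difference of −0.70 ± 0.208 SE, adjusted p = 0.0723 by limma). The groups did not overlap for either gene, but neither passed the threshold. The same held for HOXC13, at 1.56, 1.88 and 1.31 FPKM in siC and at 0.700, 0.962 and 0.438 in siIGF2BP1, with a log2 difference of −1.12 ± 0.307 SE and an adjusted p of 0.0581 by limma. HOXC6, HOXC10 and HOXD8 had non-overlapping lower groups as well, with log2 differences of −0.54, −0.90 and −0.47 and adjusted p-values of 0.0771, 0.130 and 0.0723 by limma. Together 11 of 33 members had groups that did not overlap (33.3%), against 50.6% of the protein-coding genes tested. Of the 8 HOXC members tested 7 had negative estimates, with a median log2 difference of −0.46. Over all 33 members 20 estimates were negative and the median was −0.18, and over all protein-coding genes the median was −0.01. Sorted by position, the 11 tested members of paralog groups 9 to 13 had a median of −0.46, with 8 negative, and the 15 of groups 4 to 8 a median of −0.07, also with 8 negative. The median of the 7 in groups 1 to 3 lay between these, with 4 negative, so the medians did not follow the order of the groups.

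Of the 5 tested members with a miR-196 match, none was called in siIGF2BP1 by limma or limma-voom, against 11.4% and 28.1% of protein-coding genes, and none had an unadjusted p under 0.05 by limma other than HOXB6. Their log2 differences ran from −0.38 (HOXC8, 95% interval from −1.11 to 0.35) to 0.33 (HOXB6). HOXB4, with its let-7 match, was at 3.46 ± 0.604 FPKM against 4.43 ± 0.312 in siC (log2 difference of −0.36, adjusted p = 0.153 by limma). The levels of these miRNAs in ES-2 cells were not examined here, and shielding of the members from them was not tested.

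Upon SRF depletion 3 members passed the threshold, with HOXB2 and HOXD8 higher and HOXA5 lower. HOXB2 rose from 4.02, 4.54 and 5.50 FPKM in siC to 10.9, 10.99 and 13.8 in siSRF. The groups were far apart, with a log2 difference of 1.33 ± 0.145 SE (2.51-fold, adjusted p = 0.00176 by limma). HOXD8 rose from 4.49, 4.03 and 3.42 FPKM to 5.97, 6.76 and 7.27 (log2 difference of 0.73 ± 0.128 SE, 1.66-fold, adjusted p = 0.00900 by limma). HOXA5 fell from 1.95, 2.07 and 2.92 FPKM to 0.985, 0.964 and 1.03 (log2 difference of −1.12 ± 0.194 SE, 0.46-fold, adjusted p = 0.00890 by limma). None of the siC and siSRF groups of these 3 genes overlapped. HOXA5 rested on 12 to 36 reads per library in these 6 libraries, HOXD8 on 65 to 162 and HOXB2 on 62 to 237.

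The 3 called members were 9.38% of the 32 tested, against 19.8% of the 12381 protein-coding genes tested. Among genes of at least 1 FPKM they were 3 of 21 (14.3%), against 23.5%. Limma-voom called 3 members too, against 38.4% of protein-coding genes. HOXB2 passed under all 10 alternative settings and HOXA5 and HOXD8 under 6 each. When 1 library was left out, neither HOXA5 (adjusted p from 0.0187 to 0.0361 by limma) nor HOXD8 (from 0.0137 to 0.0409) passed, and HOXB2 missed the threshold once, at 0.0103 without siSRF replicate 2.

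HOXA6, the neighbour of HOXA5 on its 5′ side, was at 1.65, 2.75 and 1.61 FPKM in siC and at 0.654, 1.11 and 1.27 in siSRF. The groups did not overlap, but the log2 difference of −0.93 ± 0.317 SE had an adjusted p of 0.0879 by limma. HOXA4, on the other side, stood at 1.46 ± 0.281 and 1.61 ± 0.101 FPKM, with overlapping groups. In HOXB, the sign of the estimates changed between neighbours. HOXB5 was at 2.24 ± 0.346 FPKM in siSRF against 3.25 ± 0.214 in siC (log2 difference of −0.53 ± 0.144 SE, adjusted p = 0.0434 by limma), between HOXB4 at 5.20 ± 0.334 against 4.43 ± 0.312 (0.23 ± 0.091 SE, adjusted p = 0.134 by limma) and HOXB6 at 7.76 ± 0.455 against 6.25 ± 0.228 (0.31 ± 0.070 SE, adjusted p = 0.0240 by limma). HOXB7 differed by a log2 value of 0.12, with a 95% interval from −0.12 to 0.36, and HOXB9 by 0.20 ± 0.070 SE (adjusted p = 0.0912 by limma). Elsewhere in HOXD, HOXD9 was at 7.35 ± 0.453 against 7.11 ± 0.266 FPKM and HOXD4 at 2.16 ± 0.224 against 1.32 ± 0.593 (log2 difference of 0.76 ± 0.332 SE, adjusted p = 0.165 by limma). HOXD-AS2, the antisense RNA that shares exon bases with HOXD8, was at 4.44 ± 1.22 FPKM in siC and at 2.87 ± 0.292 in siSRF (log2 difference of −0.58, adjusted p = 0.108 by limma).

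In total 11 of 32 members had groups that did not overlap between siSRF and siC (34.4%), against 57.3% of the protein-coding genes tested. The 23 members that were neither called nor had an unadjusted p under 0.05 lay between log2 differences of −0.96 and 0.76. The lower bound is HOXA13, with 5 to 8 reads per library in siC and 0, 3 and 3 in siSRF. Of the tested members 18 had positive and 14 negative estimates, with a median log2 difference of 0.03, against 0.02 over all protein-coding genes.

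SRF binds the CArG box. RefSeq promoters of 300 bases (250 before and 50 after the start, GRCh38.p14) were available for 20 of the 39 members. HOXD8 was among them, but HOXB2 and HOXA5, the other members called in siSRF, were not. HOXC4 and HOXC5 had the same window. None of the 20 held a CArG box on either strand. The box occurred in 351 of all 27305 promoters (1.29%), so its absence from 20 windows does not set the members apart. HOX promoters were rich in CpG dinucleotides, with a median of 22.5 per promoter (range 4 to 44) against 14 over all promoters, and HOXD8 had 34. That no box was found in these windows says nothing on binding elsewhere.

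**Figure D2:**
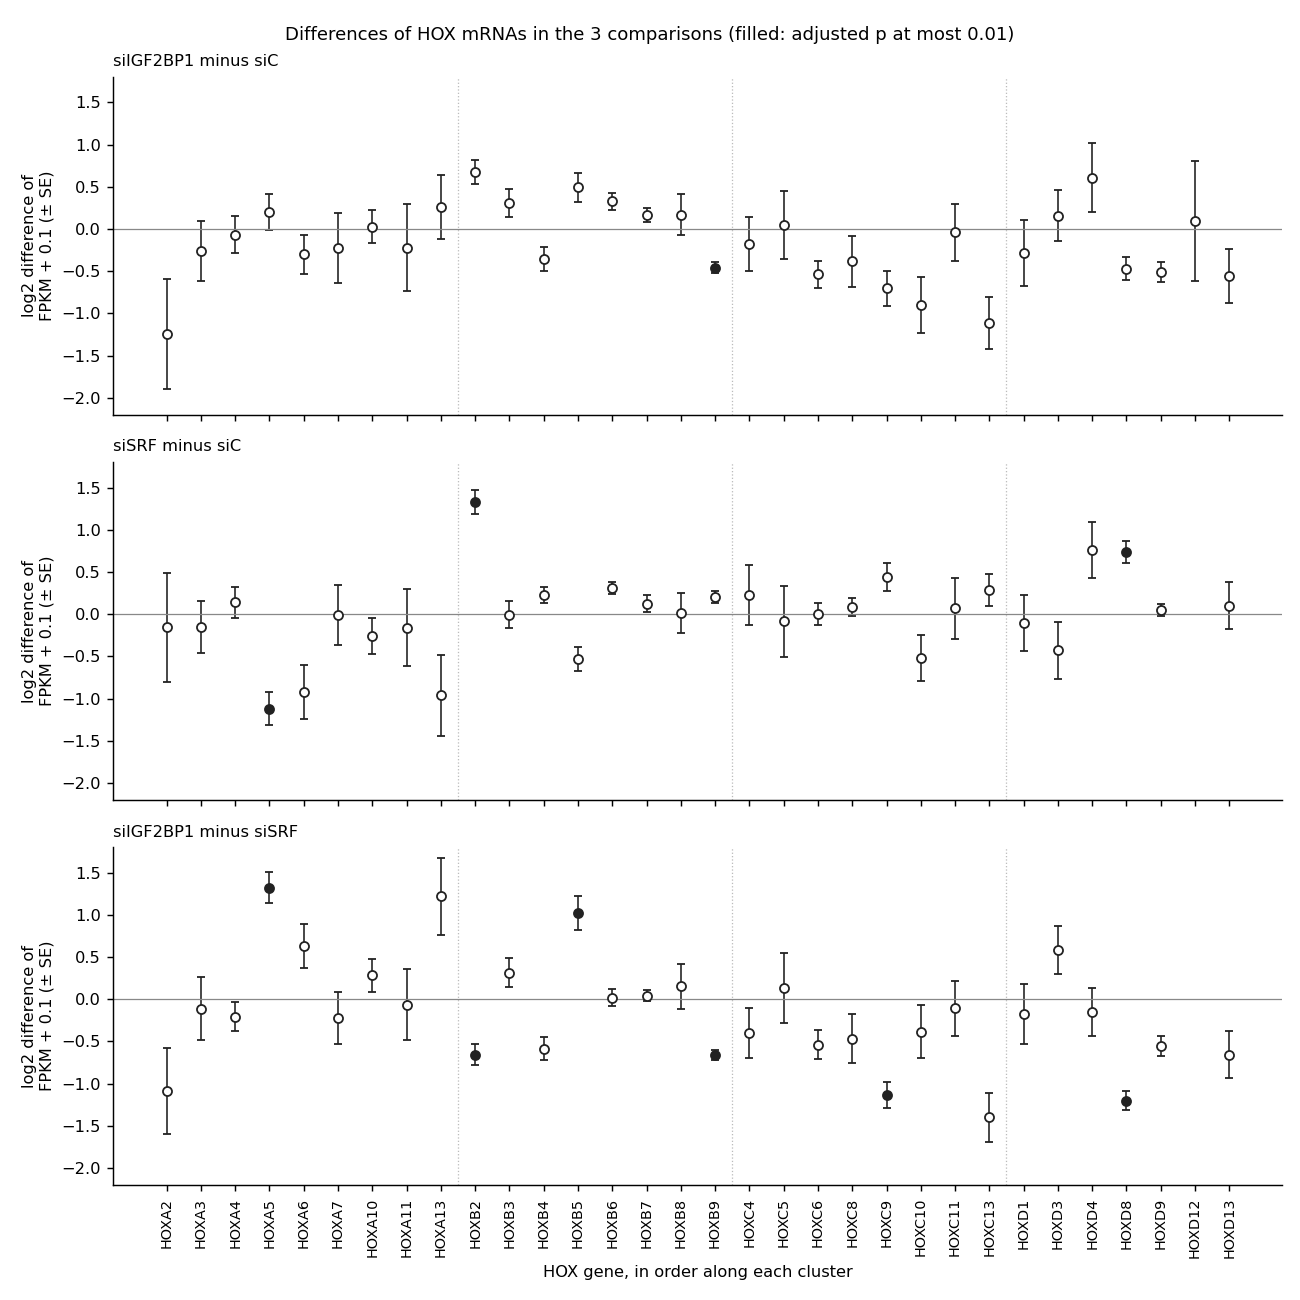
Log2 difference of FPKM + 0.1 (vertical axis, ± SE from limma) for tested HOX genes in cluster order (horizontal axis), with 1 panel per comparison, filled points for an adjusted p of at most 0.01 and dotted lines between clusters. HOXB9 is filled for siIGF2BP1 minus siC, HOXA5, HOXB2 and HOXD8 for siSRF minus siC, and 6 genes for siIGF2BP1 minus siSRF.

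The knockdowns were also compared directly, siIGF2BP1 against siSRF, because both comparisons above share the siC libraries. This comparison called 6 of 32 members (18.8%), against 32% of the 12507 protein-coding genes tested, and 6 of 21 members of at least 1 FPKM, against 37.4%. HOXA5 and HOXB5 were higher in siIGF2BP1, and HOXB2, HOXB9, HOXC9 and HOXD8 were lower. Groups did not overlap for 16 of 32 members (50%), against 65.6% of protein-coding genes, and the median log2 difference of the members was −0.19, against −0.02.

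HOXD8 had the lowest adjusted p after HOXB9. It was at 3.175, 2.61 and 2.74 FPKM in siIGF2BP1 and at 5.97, 6.76 and 7.27 in siSRF, with the controls in between at 3.42 to 4.49 FPKM. The log2 difference was −1.20 ± 0.114 SE (adjusted p = 0.000515 by limma). HOXB9 showed the same order, with 10.8, 10.1 and 10.3 FPKM in siIGF2BP1, 13.6 to 15.4 in siC and 17.7, 15.8 and 16.2 in siSRF, without overlap of any pair of groups. Its log2 difference was −0.66 ± 0.060 SE (adjusted p = 0.000427 by limma). HOXC9 was at 2.33, 1.796 and 1.62 FPKM in siIGF2BP1 and at 4.42, 4.51 and 3.96 in siSRF (log2 difference of −1.14 ± 0.154 SE, adjusted p = 0.00212 by limma). The HOXC9 values of siSRF and siC overlapped.

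HOXA5 and HOXB5, both of paralog group 5, went in the opposite direction. HOXA5 was at 2.52, 3.29 and 2.21 FPKM in siIGF2BP1 and near 1 FPKM in siSRF (log2 difference of 1.33 ± 0.182 SE, adjusted p = 0.00226 by limma). HOXB5 was at 4.54, 5.84 and 3.70 FPKM in siIGF2BP1 and at 2.54, 2.31 and 1.86 in siSRF (log2 difference of 1.02 ± 0.197 SE, adjusted p = 0.00932 by limma). HOXC5, the remaining member of this group, had means of 0.249 to 0.279 FPKM in the 3 conditions, with overlapping groups. HOXB2 had a higher mean than in siC in both knockdowns but was lower in siIGF2BP1 than in siSRF (log2 difference of −0.66 ± 0.123 SE, adjusted p = 0.00831 by limma).

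HOXB9 and HOXD8 remained called in this comparison under all 10 alternative settings and whichever library was left out. HOXC9 was called under all 10 settings, HOXA5 and HOXB2 under 9 and HOXB5 under 6. Of the 6 fits that left out a library, HOXC9 and HOXA5 were called in 3 each, and HOXB2 and HOXB5 in none. The adjusted p of HOXC9 lay between 0.0101 and 0.0131 by limma without siIGF2BP1 replicate 2 or siSRF replicate 1 or 2, and that of HOXA5 between 0.0102 and 0.0113 without siIGF2BP1 replicate 1 or siSRF replicate 1 or 2. HOXC13 (−1.40 ± 0.291 SE), HOXD9 (−0.55 ± 0.122 SE) and HOXB4 (−0.59 ± 0.135 SE) had adjusted p-values of 0.0124, 0.0157 and 0.0181 by limma and were called by limma-voom, as was HOXA13 (adjusted p = 0.00219 on 0 to 11 reads per library). Limma-voom called 10 members in all, against 49.3% of protein-coding genes.

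**Figure D3:**
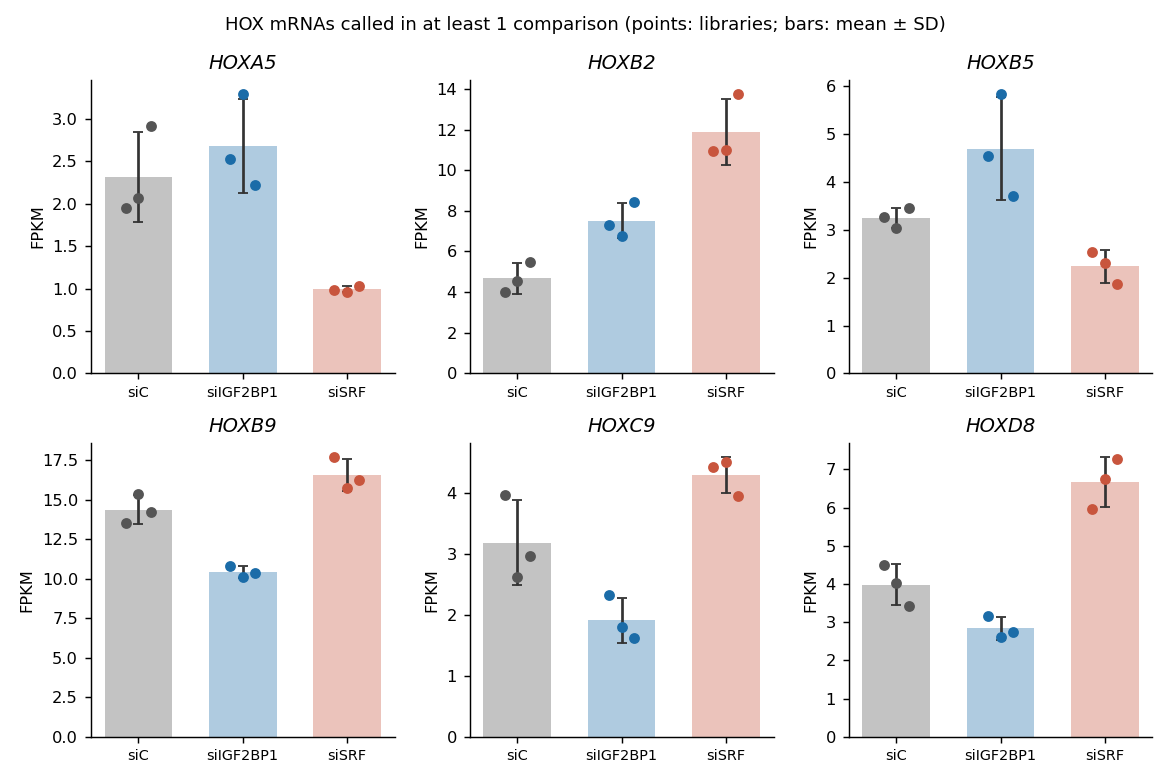
FPKM (vertical axis, from 0) of the 6 HOX genes called in at least 1 comparison, in siC, siIGF2BP1 and siSRF; points are libraries, bars are means and error bars the SD of 3 libraries. HOXB9 and HOXD8 are lowest in siIGF2BP1 and highest in siSRF, HOXA5 and HOXB5 are lowest in siSRF, and HOXB2 is lowest in siC.

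Summed over a cluster, the members shifted in different ways. The HOXB sum was at 57.1, 56.7 and 56.1 FPKM in siC, at 61.6, 60.0 and 60.7 in siIGF2BP1 and at 67.2, 69.6 and 70.3 in siSRF. The HOXC sum was at 13.6, 12.5 and 13.04 FPKM in siC, at 9.37, 9.56 and 7.45 in siIGF2BP1 and at 14.9, 14.7 and 14.1 in siSRF. The HOXD sum was at 14.8 ± 0.714, 11.8 ± 1.34 and 18.4 ± 1.00 FPKM in the same order, and the HOXA sum at 10.6 ± 1.33, 9.93 ± 0.191 and 8.26 ± 0.291. The 3 conditions did not overlap for HOXB, HOXC and HOXD. Single protein-coding genes did not overlap in 50.6% (siIGF2BP1 against siC), 57.3% (siSRF against siC) and 65.6% (direct comparison) of those tested. For HOXA the siIGF2BP1 values lay within those of siC and the siSRF values below both. The HOXB share of all HOX mRNA was 59.5% ± 0.545 in siC, 66.6% ± 1.13 in siIGF2BP1 and 62.6% ± 0.659 in siSRF. These sums weigh the abundant members most and were not tested. A single member can also move them. HOXB2 had means of 4.69 FPKM in siC and 11.9 in siSRF, where the mean HOXB sums were 56.6 and 69.0.

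**Figure D4:**
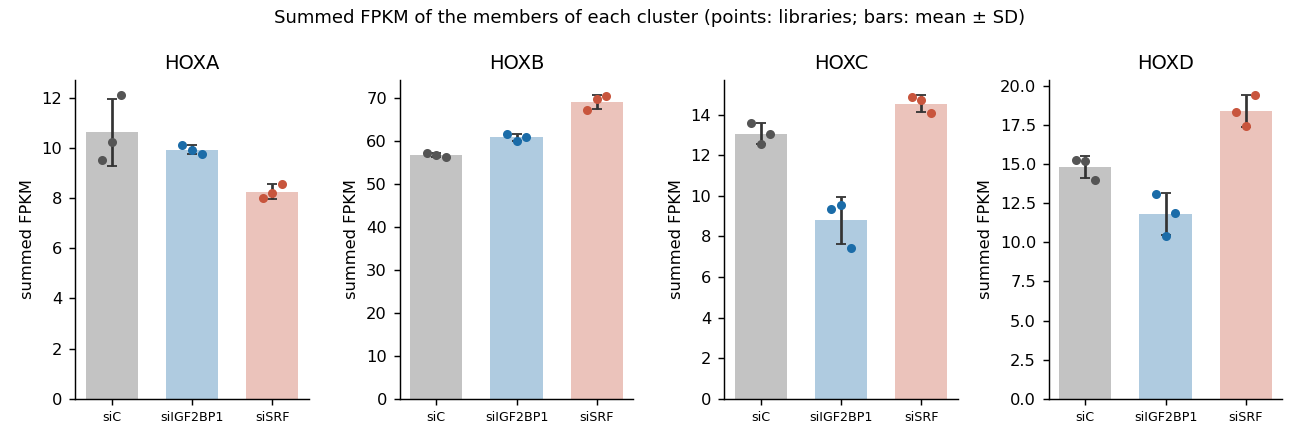
Summed FPKM of the HOX genes of each cluster (vertical axes, from 0, with a separate scale per panel) in siC, siIGF2BP1 and siSRF; points are libraries, bars are means and error bars the SD of 3 libraries. HOXC and HOXD are lowest in siIGF2BP1, HOXB is highest in siSRF, and HOXA is lowest in siSRF.

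Non-coding genes of the clusters were mostly low or without a read. Of 26 such rows 12 had no read in any library and 9 reached a mean of 0.1 FPKM. HOXD-AS2 (4.44 ± 1.22 FPKM in siC) and HOTAIRM1 of the HOXA cluster (4.09 ± 0.785 FPKM), were the most abundant, while HOTAIR of the HOXC cluster stood at 0.152 FPKM and HOTTIP of the HOXA cluster had no read in siC. Limma called none of the 8 tested in siIGF2BP1, none of the 9 in siSRF and none of the 9 between the knockdowns. Of protein-coding genes it called 11.4%, 19.8% and 32%. The numbers with an unadjusted p under 0.05 were 2, 1 and 3, and limma-voom called 1, 0 and 1. HAGLR, which lies antisense in the HOXD cluster, came nearest in siIGF2BP1, with 1.59, 1.79 and 1.43 FPKM in siC and 1.02, 0.961 and 0.754 after depletion (log2 difference of −0.75 ± 0.198 SE, adjusted p = 0.0504 by limma).

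Of the 9 TALE cofactors 5 could be tested. Limma called 1 of them in siSRF (20%) and 1 between the knockdowns (20%), against 19.8% and 32% of protein-coding genes. PBX3, a partner of HOX proteins on DNA, rose upon SRF depletion from 3.88, 3.67 and 4.40 FPKM to 7.06, 6.78 and 6.68 (log2 difference of 0.77 ± 0.089 SE, adjusted p = 0.00217 by limma). In siIGF2BP1 it was at 3.60, 4.57 and 3.28 FPKM, overlapping with siC and 0.84 lower than in siSRF on the log2 scale (adjusted p = 0.00351 by limma). MEIS2 (3.99 FPKM in siC), PKNOX1 (3.60), PBX2 (1.60) and MEIS1 (0.924) were not called by limma in any comparison, while limma-voom called MEIS2 in siSRF against siC and between the knockdowns (adjusted p = 0.00325 and 0.000133). PBX4, MEIS3 and PKNOX2 were at or near 0. In siIGF2BP1 none of the 5 was called by limma or limma-voom, against 11.4% and 28.1% of protein-coding genes. None had an unadjusted p under 0.05 there.

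Among the 17 Polycomb genes, all of which were tested, limma called 2 in siIGF2BP1 (11.8%), 5 in siSRF (29.4%) and 2 between the knockdowns (11.8%), against 11.4%, 19.8% and 32% of protein-coding genes. CBX6, a chromodomain subunit of the complex PRC1, fell in both, from 25.1 ± 1.18 FPKM in siC to 9.79 ± 0.118 in siIGF2BP1 (log2 difference of −1.35, adjusted p = 0.000128 by limma) and to 15.7 ± 0.909 in siSRF (−0.67, adjusted p = 0.00104 by limma). BMI1, a RING finger subunit of PRC1, rose in both, from 17.5 ± 0.696 FPKM to 23.5 ± 1.39 (0.42, adjusted p = 0.00678 by limma) and to 27.0 ± 0.339 (0.62, adjusted p = 0.000533 by limma). RNF2, PHC3 and PHC1, further PRC1 subunits, rose in siSRF by 0.39, 0.42 and 0.72 on the log2 scale. JARID2, a partner of PRC2, and CBX6 were called between the knockdowns, JARID2 being higher in siIGF2BP1 by 0.91 and CBX6 lower by 0.68. The PRC2 core genes EZH2, EED and SUZ12 were not called by limma in any comparison, while limma-voom called EZH2 in siIGF2BP1 against siC (adjusted p = 0.00831) and SUZ12 between the knockdowns (adjusted p = 0.00269). The list medians of the log2 difference were −0.02 in siIGF2BP1 and 0.02 in siSRF, against −0.01 and 0.02 over all protein-coding genes.

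Of the 10 genes of the MLL complex and its opposing or related enzymes, DPY30, a shared MLL subunit, rose in siSRF from 14.5 ± 1.33 to 21.6 ± 1.07 FPKM (log2 difference of 0.57, adjusted p = 0.00412 by limma). None was called in siIGF2BP1 by limma or limma-voom, against 11.4% and 28.1% of protein-coding genes, and 1 had an unadjusted p under 0.05. Limma called 10% of the list in siSRF and 30% between the knockdowns, against 19.8% and 32% of protein-coding genes. Between the knockdowns KMT2A and ASH2L were higher in siIGF2BP1, by 0.33 and 0.51, and DPY30 lower by 0.55 on the log2 scale. Of the 11 caudal and retinoid genes, which act upstream of HOX genes in the embryo, 5 could be tested. None of the 5 was called by limma in siIGF2BP1, siSRF or the direct comparison, against 11.4%, 19.8% and 32% of protein-coding genes. The numbers with an unadjusted p under 0.05 were 1, 3 and 1, and limma-voom called 1 in each. RARA, at 2.95 FPKM in siC, was the most abundant, and CDX1, CDX2, CDX4, RXRG and CYP26A1 were at 0 in all libraries.

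Outside the clusters, the 3 nearest protein-coding genes on each side were examined, 24 in all, of which 21 were tested. In siIGF2BP1 limma called 3 of them (14.3%), in siSRF 2 (9.52%) and between the knockdowns 6 (28.6%), against 11.4%, 19.8% and 32% of protein-coding genes. CBX1, 427 kb from the HOXB cluster, rose in siIGF2BP1 from 16.8 ± 0.566 to 24.3 ± 1.89 FPKM, while ATP5G3, 911 kb from HOXD, fell in both knockdowns from 35.7 ± 1.01 FPKM to 27.4 ± 1.87 and 27.0 ± 0.536. HNRNPA3, 1022 kb from HOXD on its other side, rose in siIGF2BP1 by 0.31 on the log2 scale, and TAX1BP1, 539 kb from HOXA, rose in siSRF by 0.46. Between the knockdowns HIBADH, NFE2L2 and SKAP2 were higher in siIGF2BP1 (0.63, 0.44 and 0.38) and MTX2 and CBX3 lower (−0.48 and −0.31). EVX1 and EVX2, homeobox genes at the 5′ ends of HOXA and HOXD, were at 0 and at no more than 0.024 FPKM on average. The IGF2BP1 gene itself lies 268.6 kb from the HOXB cluster on chromosome 17 (48997385 to 49056145, plus strand, GRCh38). Of 8 HOXB estimates 6 were positive in siIGF2BP1, where IGF2BP1 mRNA fell. In siSRF 6 of 8 were positive too, with IGF2BP1 mRNA at 14.2 FPKM against 12.8 in siC. A link to this distance was not tested.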

How the data were processed

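The data are 9 total RNA-seq libraries of ES-2 cells. The authors clipped reads (Cutadapt 1.14), aligned them to GRCh38 (HiSat2 2.1.0), counted them on Ensembl genes (featureCounts 1.5.3) and scaled libraries by TMM in edgeR 3.18.1 (versions from the submitters' processing notes). The deposited values are FPKM per library in 2 tables with identical siC columns. The tables also hold the authors' own fold changes, p-values and FDR, which were not used. Values came out as whole reads for 100% of entries (tolerance 0.01 reads), with 6421764 to 9416175 reads on genes per library, and all 9 libraries share a scale.

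Groups were taken from the sample labels. A limma-trend model (limma 3.58.1, R 4.3.3) was fitted to log2(FPKM + 0.1) of the 6 libraries of each comparison, keeping genes that averaged 0.1 FPKM or more. The Benjamini-Hochberg adjustment covered every gene kept, and a gene was called when its adjusted p did not exceed 0.01. Fold changes are on the log2(FPKM + 0.1) scale, which understates changes of low genes. An exact permutation test of 3 against 3 libraries cannot go below p = 0.1. On simulated reads for siIGF2BP1 against siC, limma called 16% of 200 and 78.3% of 3000 genes changed 2-fold among 21297 and 21306 genes, with no false call among protein-coding genes but 13 and 44 among other genes. Limma-voom called 95% and 97.97%, with 2 and 9 false calls among protein-coding and 0 and 9 among other genes. The changed genes were protein-coding genes of at least 1 FPKM in siC. All genes were given the same variance beyond counting error, which real genes need not have. In this simulation limma called a smaller share of the changed genes where fewer genes changed. Whether this holds for the real libraries was not tested.

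HOX members were named, except 1 that is not reported individually here, with values per library for called members and the highest of each cluster. Of the other lists, called genes were named, at most 5 per list and comparison by smallest p. The members and lists were chosen with earlier results of these data known. Alternatives were other pseudocounts (1 and 0.01), filters (none, 1 FPKM), a median-ratio rescaling, limma-voom on recovered reads, a replicate block, all 9 libraries, a threshold of 0.05, GC content and length taken out, and each replicate left out. Floors for genes without a read cover counting error only. Intervals come from the limma fit and, like its p-values, measure the spread between these libraries, which may be technical. Sequences are from RefSeq and GENCODE v44.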

Additional observations from a re-analysis of the deposited data

Results flagged for a closer look

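In 5 HOX genes the estimates of the knockdowns against siC had opposite signs and the direct comparison of siIGF2BP1 with siSRF passed the threshold by limma. These were 15.6% of the 32 members tested in all 3 comparisons, against 23.6% of 12206 protein-coding genes. The log2 differences of siIGF2BP1 minus siSRF were 1.33 for HOXA5 and 1.02 for HOXB5, both higher in siIGF2BP1, and −0.66 for HOXB9, −1.14 for HOXC9 and −1.20 for HOXD8, which were higher in siSRF. The sign of HOXA5 in siIGF2BP1 against siC rests on an estimate of 0.21 with a 95% interval from −0.32 to 0.73. In all 5 the 3 libraries of one knockdown lay on one side of the 3 of the other, as in 65.6% of protein-coding genes. The 5 genes were picked by this same comparison, so the separation adds no support.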

How the results depend on the processing

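With 3 libraries per group, and 6 to 371 reads per library for the 21 members of at least 1 FPKM in siC, small differences could not be called. The 1, 3 and 6 HOX genes called in siIGF2BP1, siSRF and the direct comparison became 3, 5 and 10 at a threshold of 0.05, 3, 3 and 10 with limma-voom on recovered reads and 1, 1 and 4 without a filter on low values. Leaving out 1 replicate gave 0 in siIGF2BP1 (every fit), 0 to 1 in siSRF and 2 to 5 in the direct comparison. Over protein-coding genes those fits called 375 to 637, 826 to 1617 and 2561 to 3033, against 1430, 2446 and 4001 with none left out. Same-numbered libraries did not deviate together (correlations from −0.0438 to 0.0186 in 9 pairs, 1 of which matched best by number), and with a replicate block 0, 1 and 4 HOX genes and 88, 465 and 1885 protein-coding genes were called, against 1430, 2446 and 4001. The HOX calls lost with the block were HOXB9 in siIGF2BP1, HOXA5 and HOXD8 in siSRF, and HOXA5 and HOXB5 in the direct comparison. Limma-voom called 3510, 4753 and 6162 protein-coding genes, a threshold of 0.05 called 3116, 4547 and 6036, and all 9 libraries in one fit called 2271 in siIGF2BP1. Of the gene lists, in the same order, the Polycomb genes went from 2, 5 and 2 called to 5, 9 and 5 with limma-voom, the flanking genes from 3, 2 and 6 to 8, 10 and 9, the TALE cofactors from 1 in siSRF and 1 in the direct comparison to 2 each, the MLL list from 1 in siSRF to 4, the caudal and retinoid genes from 0 to 1 in each and the non-coding genes from 0 to 1 in siIGF2BP1 and the direct comparison. At a threshold of 0.05 the counts in siSRF were 10 for Polycomb, 11 for flanking, 5 for MLL and 2 for TALE genes, and with a replicate block 2, 0, 0 and 0. Flanking genes called in siSRF were 8 with all 9 libraries, 6 with GC content and length taken out and 5 above 1 FPKM. The reductions of IGF2BP1 and SRF mRNA kept their direction and their call in all fits. Over the HOX differences that the text prints, no alternative and no left-out library turned a direction. The alternatives other than left-out libraries left the status, called or not called, unchanged 342 times, with 15 calls lost and 20 gained. For the left-out libraries these numbers were 188, 37 and 2. Unchanged includes genes that stayed uncalled, so 342 and 188 are not counts of kept calls. Of 6 left-out fits, 0 kept HOXB9 in siIGF2BP1, HOXA5 or HOXD8 in siSRF, or HOXB2 or HOXB5 in the direct comparison. HOXB2 in siSRF was kept in 5. In the direct comparison HOXA5 and HOXC9 were kept in 3 each, and HOXB9 and HOXD8 in all 6. The cause of these shifts was not tested.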
